A study of Mus musculus with 32 samples.

Results

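The genes described here serve the output of glucose by the liver, and were chosen as a named list of 8: G6pc, Slc37a4, Pck1, Fbp1, Pcx, Gcgr, Ppargc1a and Crtc2. All 8 were measured, each by 1 probe set, among 22180 genes on 32 arrays of mouse liver. The arrays were Affymetrix expression arrays with values on a log2 scale, so that a difference of 1 is a doubling of the signal. Each array was 1 male wild-type C57BL/6NTac mouse aged 14 weeks that had fasted for 10 h before a gavage. The groups were palm oil clamped (9 mice), control clamped (7 mice), palm oil basal (9 mice) and control basal (7 mice). Palm oil was given at 2 g/kg and the control gavage was water. Basal mice were killed under isoflurane 6 h after the gavage. Clamped mice had carried a jugular vein catheter for some days, received labelled glucose from 6 h after the gavage, then insulin at 15 pmol/kg/min with glucose adjusted to hold glycaemia, and were killed with ketamine and xylazine. The labels number the clamped mice from 15 to 32 and the basal mice from 33 to 52, without overlap. Insulin, the catheter, the infusions, the later time, the anaesthetic and the order of the animals therefore cannot be told apart in any clamped against basal comparison.

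The liver makes glucose from lactate, glycerol and amino acids by gluconeogenesis. Pyruvate carboxylase (Pcx), phosphoenolpyruvate carboxykinase (Pck1) and fructose-1,6-bisphosphatase (Fbp1) carry the steps that bypass glycolysis, the glucose-6-phosphate transporter (Slc37a4) moves the product into the endoplasmic reticulum, and glucose-6-phosphatase (G6pc) frees glucose for export. Glucagon, through its receptor (Gcgr) and cyclic AMP, raises transcription of G6pc and Pck1 with the coactivators Crtc2 and Ppargc1a, while insulin lowers it through loss of FOXO1 from the nucleus.

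A start region of each of 4 members is shown. They were chosen because G6pc and Gcgr were lower in clamped mice and because G6pc, Pck1 and Ppargc1a varied together between mice. RefSeq promoter windows (GRCm38.p6) matched 7 of the 8 members. The 250 bases before a RefSeq transcript start are given on the strand of the gene. Capitals mark the CREB core TGACG and the FOXO core TGTTT on either strand (CGTCA and AAACA on the other strand).
G6pc, chr11:101367466-101367715, plus strand: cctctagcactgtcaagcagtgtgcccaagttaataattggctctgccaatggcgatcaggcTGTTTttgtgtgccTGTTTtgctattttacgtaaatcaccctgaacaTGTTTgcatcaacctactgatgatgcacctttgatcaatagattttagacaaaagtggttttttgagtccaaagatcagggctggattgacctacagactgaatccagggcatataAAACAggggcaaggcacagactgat
Pck1, chr2:173152823-173153072, plus strand: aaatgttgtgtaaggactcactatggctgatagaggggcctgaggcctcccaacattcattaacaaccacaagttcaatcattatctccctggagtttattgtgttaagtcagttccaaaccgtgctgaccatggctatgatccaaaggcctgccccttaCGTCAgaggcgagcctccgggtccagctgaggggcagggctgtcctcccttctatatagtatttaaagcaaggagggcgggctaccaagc
Ppargc1a, chr5:51567726-51567975, minus strand: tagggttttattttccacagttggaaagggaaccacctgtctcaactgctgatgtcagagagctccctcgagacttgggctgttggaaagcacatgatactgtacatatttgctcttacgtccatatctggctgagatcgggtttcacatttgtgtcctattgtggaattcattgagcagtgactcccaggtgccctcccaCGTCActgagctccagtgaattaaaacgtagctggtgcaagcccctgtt
Gcgr, chr11:120530477-120530726, plus strand: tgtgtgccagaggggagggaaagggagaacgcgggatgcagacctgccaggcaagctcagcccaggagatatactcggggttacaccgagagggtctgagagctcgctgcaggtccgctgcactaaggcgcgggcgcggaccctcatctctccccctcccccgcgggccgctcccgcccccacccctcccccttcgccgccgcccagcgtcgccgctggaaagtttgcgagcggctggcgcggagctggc

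The G6pc window held 4 FOXO cores, which began 188, 174, 141 and 25 bases before the start, and no CREB core. The Pck1 window held 1 CREB core 90 bases before the start, the Ppargc1a window held 1 at 49 bases, and neither held a FOXO core. Of these letters, the Gcgr window held none. The Ppargc1a window lies inside the gene, which spans bases 51454249 to 52115853 of its chromosome. The Gcgr window lies inside its gene too (120529185 to 120538989). Starts of these genes outside the windows were not searched, so that a missing motif holds for the window only. Among 32851 windows of this length in the table, 46.4% held a FOXO core, 17.8% a CREB core and 1.55% the full element TGACGTCA, which contains the CREB core and which none of the windows of the 7 matched members had. These are matches of letters only.

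**Figure D1:**
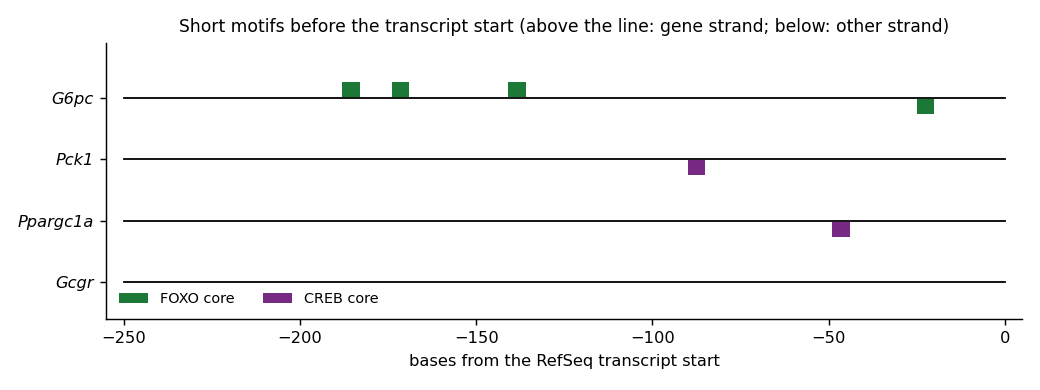
Position of the FOXO core (green) and the CREB core (purple) in the 250 bases before a RefSeq transcript start, in bases from the start, for 4 genes. The Ppargc1a and Gcgr windows lie inside the gene. G6pc shows 4 FOXO cores, Pck1 and Ppargc1a 1 CREB core each, and Gcgr none.

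The arrays were those of liver. The mean of 8 hepatocyte markers, among them Alb and Cps1, lay between 10.20 and 10.41 in clamped and between 9.84 and 10.28 in basal arrays. Of these markers Tat was higher in clamped mice by 0.83 in palm oil and 0.67 in control mice, and Hnf4a by 0.44 and 0.38. Both also count in the pathway lists below. Serpina1a averaged 9.25 and 9.32 in palm oil and control clamped mice, against 8.99 and 8.92 in basal mice. Alb, Apoa1, Apob and Cps1 were higher by less, and Cyp2e1 was slightly lower. Markers of pancreatic acinar cells (9 of 12 measured) ranged in their mean from 1.56 to 9.42 in clamped and from 1.87 to 10.1 in basal arrays, and exceeded 6 in 12 acinar-rich arrays, of which 9 were basal and 3 clamped. Islet markers (8 of 9 measured), which matter here because islet cells use several of the same genes, stayed between 1.29 and 1.67 in clamped and between 1.16 and 2.36 in basal arrays. The mean of the neutrophil markers was higher in clamped mice, from 3.40 to 4.84, against 2.04 to 3.06 in basal mice. The dim Ly6g of that list averaged 0.97 and 1.09 in palm oil and control clamped mice, against 1.02 and 1.14 in palm oil and control basal mice. The median of the Kupffer cell marker mean (6 of 6 measured) was 5.51 in palm oil clamped and 5.36 in control clamped mice, against 5.24 in palm oil basal and 5.10 in control basal mice. Within that list Marco averaged 5.41 and 5.25 in palm oil and control clamped mice, against 3.76 and 3.64 in palm oil and control basal mice, while Clec4f averaged 6.10 and 5.98, against 6.20 and 6.20. The biliary median (4 of 5 measured) was 2.37 and 2.44 in palm oil and control clamped mice, against 2.14 and 2.04 in palm oil and control basal mice. Within that list Sox9 averaged 4.33 and 4.56, against 3.46 and 3.19. Krt19 averaged 1.81 and 1.77, against 1.83 and 1.97, and Krt7 and Epcam were likewise dim and changed little. A set of 7 basal mice whose labels number them from 44 upwards, 3 palm oil and 4 control, also stood apart: they differed from the other 9 basal arrays in 2255 genes, or 10.2% of those tested. Of the members only Pck1 was among them (-0.31 ± 0.09, SE, limma adjusted p = 0.0360). The members' differences and the counts of the pathway lists were also computed without these arrays, and values are given where a call or sign of the differences changed.

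In clamped mice G6pc and Gcgr fell, and none of the other members passed the test, whichever gavage had been given. In palm oil mice 2 of 8 members fell and 0 rose, where 7.57% of all genes passed the test, 3.8% lower and 3.76% higher. In control mice 2 of 8 fell and 0 rose, where 8.75% of all genes passed, 4.09% lower and 4.66% higher. All 8 members lay among the 11090 genes with a mean above the median of all genes. In a fit of those genes alone, 1957 passed in palm oil and 2307 in control mice, G6pc and Gcgr among them. The share that passed was thus higher among brighter genes than over all genes. The median log2 difference of the 8 was 0.08 in palm oil and -0.05 in control mice, beside -0.02 over all genes in both. Adjusted p-values come from limma with Benjamini-Hochberg adjustment over all 22180 genes, and a call is an adjusted p under 0.05. Beside these, 1 more member had an unadjusted p under 0.05 in each gavage group, Crtc2 in palm oil and Pcx in control mice. The marker means of hepatocytes, neutrophils, Kupffer, biliary and acinar cells differed between clamped and basal mice as given above, though not every gene of a list did. For the acinar markers, values without the acinar-rich arrays and with the marker level as a term stand beside the genes below; the part of the other markers in the differences was not tested. RNA was taken from whole liver, so that fewer cells of a type and less RNA per cell cannot be told apart.

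**Figure D2:**
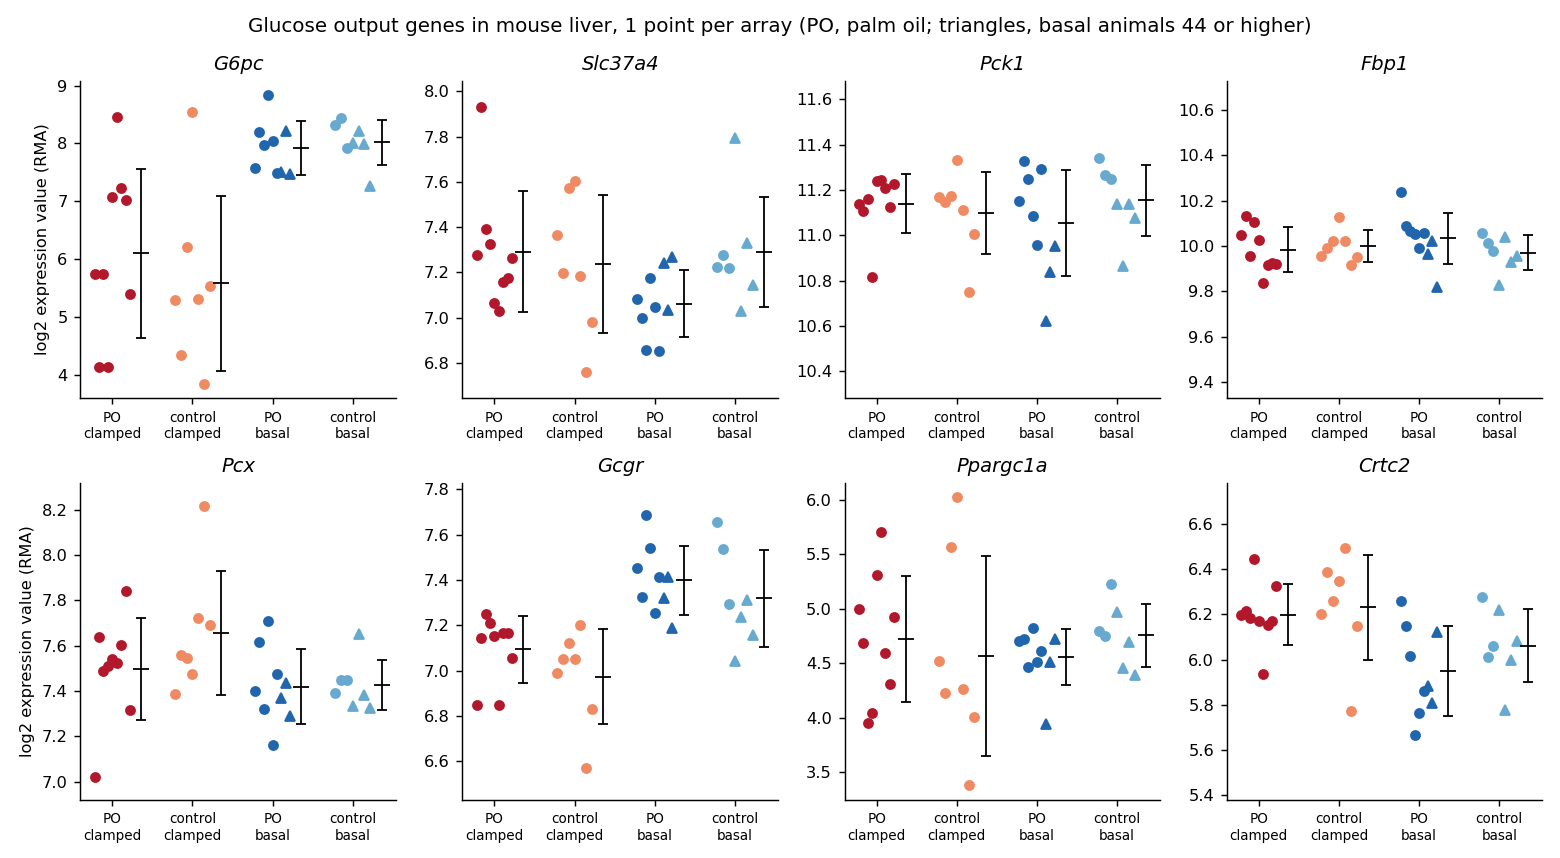
Log2 expression value of the 8 genes, 1 point per array, in palm oil (PO) clamped, control clamped, PO basal and control basal mice; bars show the mean and SD, and triangles mark basal animals numbered from 44 upwards. G6pc spans 3.85 to 8.54 in clamped and 7.26 to 8.83 in basal arrays, while Pck1 and Fbp1 keep within less than 1 log2 unit.

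G6pc, the last enzyme of both gluconeogenesis and glycogen breakdown, had the lowest, median and highest values 4.13, 5.75 and 8.45 in palm oil clamped mice, against 7.46, 7.97 and 8.83 in palm oil basal mice. In control clamped mice these were 3.85, 5.30 and 8.54, against 7.26, 8.0 and 8.44 in control basal mice. Of the palm oil clamped arrays 8 of 9 lay below every palm oil basal array, and of the control clamped arrays 6 of 7 lay below every control basal array. The exceptions were palm oil clamped replicate 6 (8.45) and control clamped replicate 4 (8.54), and the second of these lay above all control basal arrays. G6pc was 3.52-fold lower in palm oil clamped than in palm oil basal mice (-1.81 ± 0.47 log2, SE, n = 9 and 9, limma adjusted p = 0.0113). It was 5.42-fold lower in control clamped than in control basal mice (-2.44 ± 0.53, n = 7 and 7, limma adjusted p = 0.00231). The groups overlapped in both comparisons, as did those of every other member; over all genes 1.45% and 2.55% had groups that did not overlap.

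The fall of G6pc kept its direction in every alternative, between -2.11 and -1.57 in palm oil and between -2.93 and -2.15 in control mice. Several alternatives, among them other thresholds, the rank sum test and the probe set choice, cannot change the difference. Its direction was fixed in these, and only the others bear on it. Its call was lost in palm oil mice without the basal mice from 44 upwards (-1.91, adjusted p = 0.0524), without the other basal arrays (-1.62, adjusted p = 0.204) and without the 12 acinar-rich arrays (-2.10, adjusted p = 0.150). With the acinar marker level as a covariate it was kept (-1.88, adjusted p = 0.0216 in palm oil mice and -2.52, adjusted p = 0.00567 in control mice). In control mice it was lost without those 12 arrays (-2.57, adjusted p = 0.0866) and in the exact rank sum test over all genes (adjusted p = 0.198).

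The spread of G6pc differed between the states as well as its level. Its SD was 1.46 in palm oil clamped and 1.52 in control clamped mice, against 0.46 in palm oil basal and 0.39 in control basal mice. Pooled over the gavages the SD was 1.49 in clamped and 0.43 in basal mice, a ratio of 3.45, which exceeded that of 99.7% of the 11090 genes with a mean above the median. Ppargc1a, a coactivator that binds nuclear receptors and FOXO1, had a smaller ratio, with a pooled SD of 0.74 in clamped and 0.27 in basal mice (ratio 2.73, above 99.0% of those genes). Pcx (1.71, above 91.7% of those genes) and Slc37a4 (1.46, above 84.9%) also had a wider spread in clamped mice. The median ratio of those genes was 0.97, and Pck1 (0.76), Fbp1 (0.89), Gcgr (0.99) and Crtc2 (1.00) lay near it. The ratios are descriptions without a test. Since limma shares 1 spread per gene across the groups, the errors of G6pc and Ppargc1a for palm oil against control mice are wider in basal and narrower in clamped mice than the arrays of that state alone give.

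Slc37a4, which feeds glucose-6-phosphate to the phosphatase, did not pass the test in either gavage group. Its lowest, median and highest values were 7.03, 7.26 and 7.93 in palm oil clamped mice, against 6.85, 7.05 and 7.27 in palm oil basal mice. They were 6.76, 7.20 and 7.60 in control clamped mice, against 7.03, 7.23 and 7.80 in control basal mice. The log2 differences were 0.23 ± 0.12 in palm oil mice (limma adjusted p = 0.290) and -0.05 ± 0.13 in control mice (limma adjusted p = 0.886).

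Pck1, which makes phosphoenolpyruvate from oxaloacetate, was at nearly the same level in all 4 groups. Its values ran from 10.82 through a median of 11.16 to 11.24 in palm oil clamped mice, against 10.62, 11.09 and 11.33 in palm oil basal mice. In control clamped mice they were 10.75, 11.15 and 11.33, against 10.87, 11.14 and 11.34 in control basal mice. The 95% intervals of the clamped minus basal difference, -0.10 to 0.27 in palm oil and -0.27 to 0.16 in control mice, exclude a doubling or halving of the signal. The signal of Pck1 lies in the upper part of the arrays' scale, whose highest values were 12.42 to 12.75; whether this compresses its differences was not tested. Without the basal mice from 44 upwards, among which Pck1 was lower, the difference in palm oil mice was -0.04 (adjusted p = 0.892).

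Fbp1, which removes a phosphate from fructose-1,6-bisphosphate, varied least of the 8. It ranged from 9.84 to 10.13 in palm oil clamped, 9.92 to 10.13 in control clamped, 9.82 to 10.24 in palm oil basal and 9.83 to 10.06 in control basal mice. Clamped minus basal differences were -0.05 ± 0.06 in palm oil and 0.03 ± 0.07 in control mice, and the second turned to -0.10 when quantile normalization was repeated. Pcx, which supplies oxaloacetate from pyruvate, ranged from 7.02 to 7.84 in palm oil clamped, 7.39 to 8.22 in control clamped, 7.16 to 7.71 in palm oil basal and 7.33 to 7.65 in control basal mice. Its differences were 0.08 ± 0.10 in palm oil and 0.23 ± 0.11 in control mice (limma adjusted p = 0.237). In control mice 3 of 7 clamped arrays lay above every basal array of Pcx, and without control clamped replicate 6 (8.22) the difference was 0.14.

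Gcgr, the receptor through which glucagon acts on hepatocytes, had the lowest, median and highest values 6.85, 7.15 and 7.25 in palm oil clamped mice, against 7.19, 7.41 and 7.69 in palm oil basal mice. In control clamped mice they were 6.57, 7.05 and 7.20, against 7.04, 7.29 and 7.65 in control basal mice. Of the clamped arrays, 7 of 9 in palm oil and 3 of 7 in control mice lay below every basal array of the same gavage. Gcgr fell 1.24-fold in palm oil mice (-0.31 ± 0.09, limma adjusted p = 0.0325) and 1.27-fold in control mice (-0.35 ± 0.10, limma adjusted p = 0.0303). The direction held in every alternative, from -0.41 to -0.21 in palm oil and from -0.52 to -0.21 in control mice. The alternatives again include some that cannot change the difference, and a looser threshold, which cannot lose a call. The call did not hold throughout: it was lost in 11 of 36 alternatives in palm oil and in 11 of 32 in control mice. Among these were 1 median for all arrays, which gave -0.28 (adjusted p = 0.0824) and -0.31 (adjusted p = 0.0762), the acinar marker level as a covariate, which gave -0.30 (adjusted p = 0.0807) and -0.34 (adjusted p = 0.0795), removal of the acinar-rich arrays, which gave -0.41 (adjusted p = 0.0704) and -0.24 (adjusted p = 0.393), and the basal mice from 44 upwards as the only basal mice, which gave -0.21 in both (adjusted p = 0.317 and 0.265). It was also lost without any 1 of 6 palm oil arrays (basal replicates 1, 3 and 4, clamped replicates 1, 6 and 9) or of 4 control arrays (basal replicates 1 and 2, clamped replicates 6 and 7), with adjusted p up to 0.0876.

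Neither coactivator passed the test. Ppargc1a had values from 3.95 through a median of 4.69 to 5.71 in palm oil clamped mice, against 3.94, 4.62 and 4.82 in palm oil basal mice. It had 3.38, 4.26 and 6.02 in control clamped mice, against 4.40, 4.75 and 5.23 in control basal mice. In palm oil mice 0 of 9 clamped arrays lay below and 4 of 9 above every basal array, and in control mice 4 of 7 lay below and 2 of 7 above. Its differences were 0.17 ± 0.24 in palm oil and -0.19 ± 0.28 in control mice. Crtc2, the CREB coactivator that leaves the nucleus when insulin signals, ranged from 5.94 to 6.44 in palm oil clamped, 5.77 to 6.49 in control clamped, 5.67 to 6.26 in palm oil basal and 5.78 to 6.28 in control basal mice. It differed by 0.25 ± 0.09 in palm oil (interval 0.06 to 0.44, limma adjusted p = 0.104) and by 0.17 ± 0.11 in control mice (limma adjusted p = 0.392). Crtc2 is known to be controlled mainly by its place in the cell, which these arrays do not measure.

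**Figure D3:**
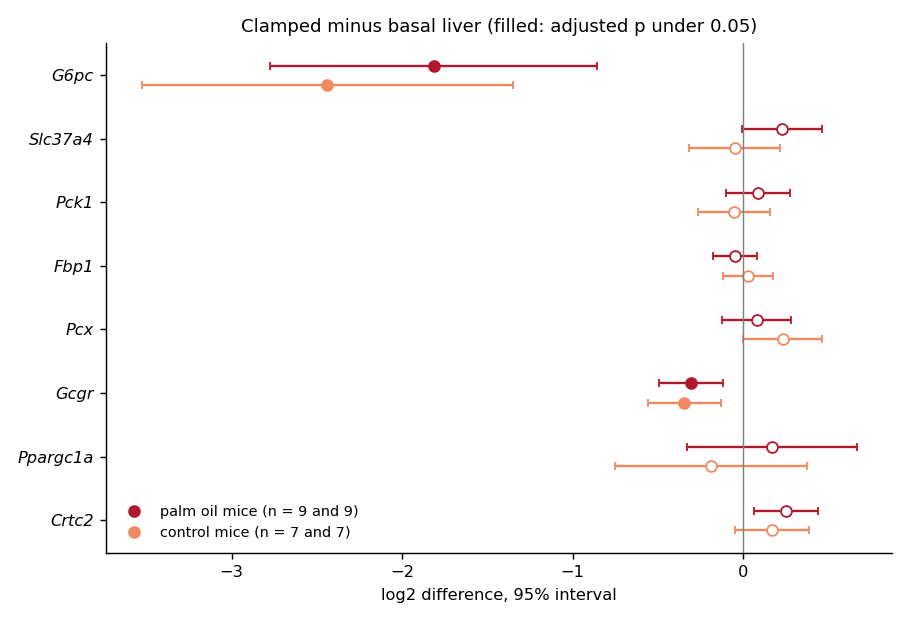
Clamped minus basal log2 difference of each gene with its 95% limma interval, for palm oil mice (red) and control mice (orange); filled points had an adjusted p under 0.05. Only G6pc (-1.81 and -2.44) and Gcgr (-0.31 and -0.35) are filled.

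Whether palm oil changed these genes was asked in both states, and no member passed the test. Among clamped mice limma called 0 of 8 members and 0% of all genes, and among basal mice likewise 0 of 8 and 0%, while 781 and 1134 of all genes had an unadjusted p under 0.05. The groups overlapped for all 8 members in both states, and failed to overlap in 0.00902% of all genes in clamped and 0.0135% in basal mice. No member had an unadjusted p under 0.05 in limma or in the exact rank sum test, in either state. The largest difference was that of G6pc in clamped mice, with a mean of 6.10 ± 1.46 in palm oil and 5.58 ± 1.52 in control mice (SD, n = 9 and 7). This difference of 0.52 ± 0.50 (SE) had an interval from -0.50 to 1.55. With the error taken from the clamped arrays alone it was 0.52 ± 0.65, with an interval from -0.84 to 1.89, which leaves room for a change of signal in either direction. It was 1.02 without control clamped replicate 4 and 0.23 without palm oil clamped replicate 6, the highest arrays of their groups, and 0.24 without control clamped replicate 6, the lowest. In basal mice G6pc averaged 7.92 ± 0.46 in palm oil and 8.02 ± 0.39 in control mice, a difference of -0.10 ± 0.50 over all groups and -0.10 ± 0.20 with the error taken from the basal arrays alone.

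The other members gave narrower limits. In clamped mice the differences of palm oil from control were 0.16 ± 0.26 for Ppargc1a, -0.16 ± 0.11 for Pcx, 0.12 ± 0.10 for Gcgr, 0.05 ± 0.12 for Slc37a4, 0.04 ± 0.10 for Pck1, -0.03 ± 0.10 for Crtc2 and -0.02 ± 0.07 for Fbp1 (log2, SE). In basal mice Slc37a4 came nearest to a difference, with -0.23 ± 0.12 (limma adjusted p = 0.975). Its palm oil basal values ran from 6.85 to 7.27, against 7.03 to 7.80 in control basal mice, and 3 of 9 palm oil arrays lay below every control array. Within the animals numbered under 44 it differed by -0.24 ± 0.11 (n = 6 and 3), and within those numbered 44 or higher by -0.14 ± 0.20 (n = 3 and 4). Without control basal replicate 4, the highest control array of Slc37a4 at 7.80, the difference was -0.14. Ppargc1a differed by -0.20 ± 0.26, Crtc2 by -0.11 ± 0.10, Pck1 by -0.10 ± 0.10, Gcgr by 0.08 ± 0.10, Fbp1 by 0.06 ± 0.07 and Pcx by -0.0059 ± 0.11. In each state the intervals from the spread shared by all groups excluded a doubling or halving of the signal for 7 of 8 members, all but G6pc. With the error taken from the basal arrays alone, the interval of G6pc in basal mice was -0.51 to 0.31, which excludes them too.

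**Figure D4:**
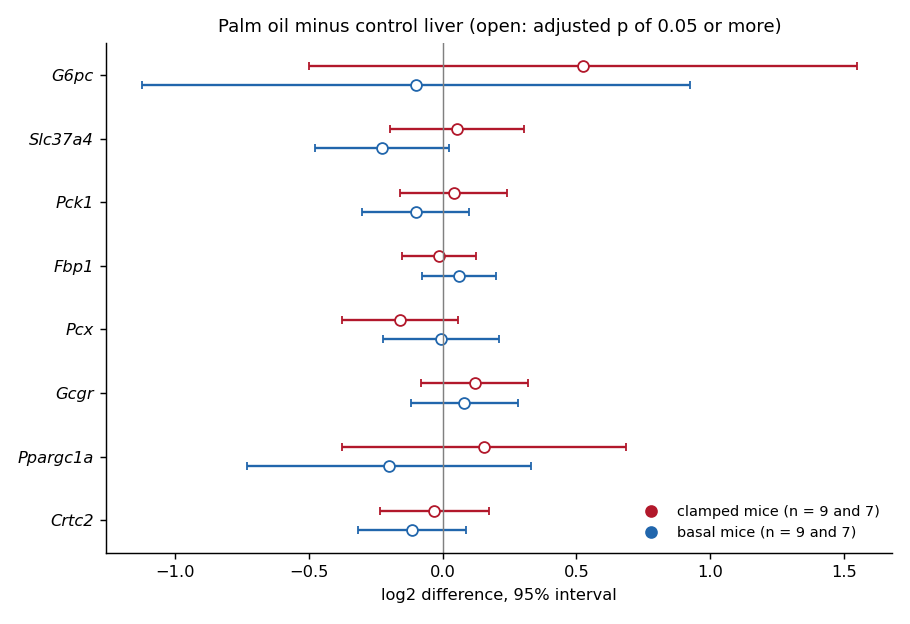
Palm oil minus control log2 difference of each gene with its 95% limma interval, for clamped mice (red) and basal mice (blue). All points are open because no gene passed the test, and the widest intervals are those of G6pc (-0.50 to 1.55 in clamped and -1.12 to 0.92 in basal mice).

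An interaction term tested whether the palm oil difference changed with the clamp. Limma called 0 of 8 members and 0% of all genes. No member, and 773 of all genes, had an unadjusted p under 0.05. The interaction was 0.62 ± 0.71 for G6pc (interval -0.82 to 2.07), 0.36 ± 0.37 for Ppargc1a, 0.28 ± 0.18 for Slc37a4, -0.15 ± 0.15 for Pcx, 0.14 ± 0.14 for Pck1, 0.08 ± 0.14 for Crtc2, -0.08 ± 0.10 for Fbp1 and 0.04 ± 0.14 for Gcgr. Single arrays moved these values: for G6pc the interaction was 1.12 without control clamped replicate 4 and 0.33 without palm oil clamped replicate 6, and for Ppargc1a 0.60 without control clamped replicate 4 and 0.16 without control clamped replicate 6. The smaller fall of G6pc in palm oil mice than in control mice was therefore not distinguishable from the spread between mice.

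By the order of the group means, G6pc ran from control clamped through palm oil clamped and palm oil basal to control basal, and neither the clamped pair nor the basal pair differed beyond its spread. Gcgr had the order control clamped, palm oil clamped, control basal and palm oil basal, again with no difference inside either pair. For Slc37a4 the palm oil basal mean of 7.06 was the lowest and the other 3 lay between 7.24 and 7.29. For Crtc2 the means were 5.95 in palm oil basal, 6.06 in control basal, 6.20 in palm oil clamped and 6.23 in control clamped mice. The group means of Pck1 lay within 11.05 to 11.15 and those of Fbp1 within 9.97 to 10.03.

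In both clamped groups the mouse with the highest G6pc also had the highest Ppargc1a and Pck1. Palm oil clamped replicate 6 had the highest value of its group for G6pc (8.45), Ppargc1a (5.71) and Pck1 (11.24). Control clamped replicate 4 had the highest of its group for G6pc (8.54), Ppargc1a (6.02) and Pck1 (11.33). At the other end, control clamped replicate 6 was the lowest of its group in 7 of 8 members, among them G6pc (3.85), Ppargc1a (3.38) and Pck1 (10.75), and the highest in Pcx (8.22). It was thus at an end of its group in all 8 members, and control clamped replicate 4 was the highest of its group in 5 of 8. In the palm oil clamped group, replicate 4 had the lowest G6pc (4.13) and Pck1 (10.82).

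Over all 32 arrays, deviations from the group means were correlated for the 28 pairs of members, with 2-sided permutation tests within groups (100000 resamples) adjusted over the pairs. Pearson's test passed in 4 pairs. Pck1 and Ppargc1a had r = 0.61 (permutation p = 2.0e-05, adjusted p = 5.6e-04) and rho = 0.58 (permutation p = 3.4e-04, adjusted p = 0.00952). G6pc and Ppargc1a had r = 0.69 (permutation p = 8.3e-04, adjusted p = 0.0116) and rho = 0.45 (permutation p = 0.0266, adjusted p = 0.124). G6pc and Pck1 had r = 0.46 (permutation p = 0.00365, adjusted p = 0.0255) and rho = 0.43 (permutation p = 0.0110, adjusted p = 0.0836). Fbp1 and Gcgr had r = 0.52 (permutation p = 0.00247, adjusted p = 0.0231) and rho = 0.50 (permutation p = 0.00541, adjusted p = 0.0757). Only the first pair passed in both measures.

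Without the 2 arrays farthest from the median of the first gene, r was 0.50 for Pck1 and Ppargc1a, 0.48 for G6pc and Ppargc1a, 0.39 for G6pc and Pck1 and 0.51 for Fbp1 and Gcgr. Without control clamped replicate 6 these were 0.53, 0.65, 0.38 and 0.50 in the same order of pairs (n = 31). Within the 16 clamped arrays r was 0.77 for Pck1 and Ppargc1a, 0.73 for G6pc and Ppargc1a and 0.72 for G6pc and Pck1. Within the 16 basal arrays these were 0.63, 0.33 and 0.18, and the difference between the states was not tested. Fbp1 and Gcgr had r = 0.42 in clamped and 0.61 in basal arrays. With the split of the basal animals at 44 also removed, Pck1 and Ppargc1a (r = 0.66, adjusted p = 0.00616) and G6pc and Ppargc1a (r = 0.69, adjusted p = 0.0195) passed. G6pc and Pck1 (r = 0.51, adjusted p = 0.101) and Fbp1 and Gcgr (r = 0.44, adjusted p = 0.107) did not.

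**Figure D5:**
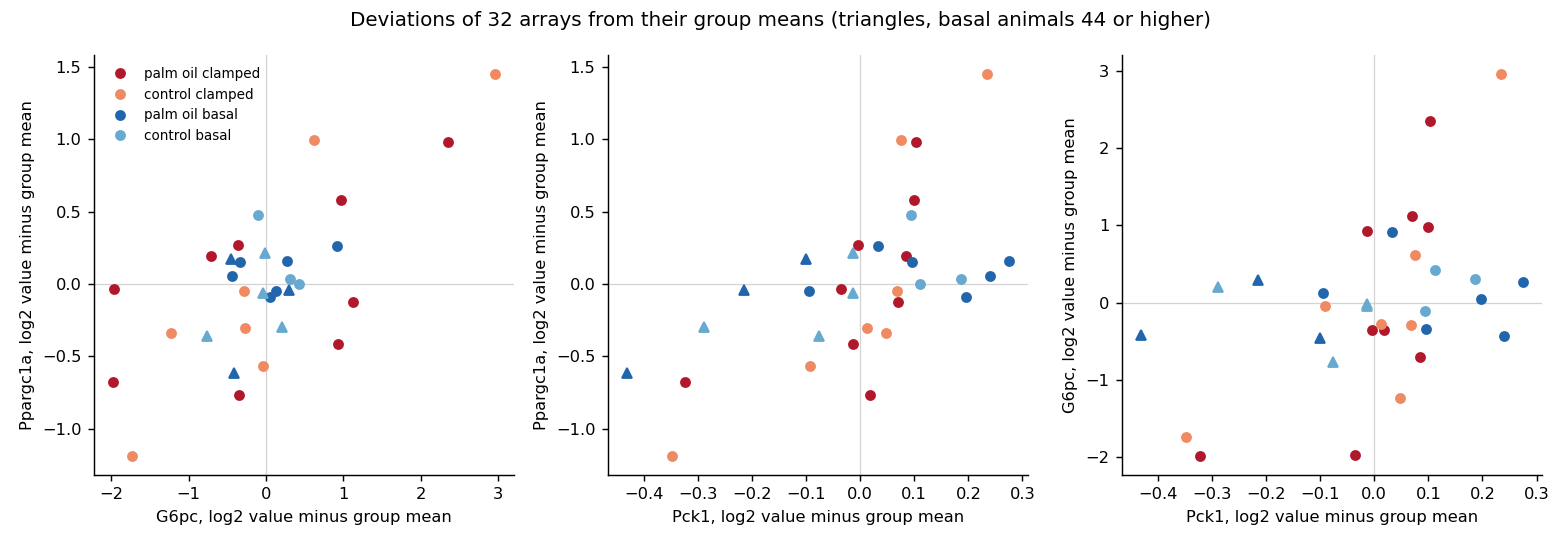
Log2 value minus the group mean of each of 32 arrays for Ppargc1a against G6pc, Ppargc1a against Pck1, and G6pc against Pck1; colours are the 4 groups and triangles mark basal animals numbered from 44 upwards. The clamped arrays reach from about the lower left to the upper right corner of each panel, and Pearson's r over all arrays is 0.69, 0.61 and 0.46.

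Among 10323 brighter named genes, the deviations of G6pc were most like those of Aldh1a1, a retinaldehyde dehydrogenase (r = 0.77, rho = 0.68 over 32 arrays), Slc25a25, a mitochondrial ATP-Mg/phosphate carrier (r = 0.75, rho = 0.70), and Car3, a carbonic anhydrase (r = 0.74, rho = 0.66). None of these passed in a clamped against basal comparison: Aldh1a1 differed by -0.32 and -0.32, Slc25a25 by 0.19 and 0.45 and Car3 by -0.93 and -0.72 in palm oil and control mice. Those of Gcgr were most like those of Dcaf4 (r = 0.77, rho = 0.72), Abcb11, the bile salt export pump (r = 0.75, rho = 0.77), and Gclm, a subunit of the enzyme that starts glutathione synthesis (r = 0.69, rho = 0.67). These were picked as the highest of many, so that no p is given.

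Other genes of the pathway showed calls in both directions. Of 31 symbols listed as further enzymes and carriers of gluconeogenesis, 24 were measured. In palm oil mice 2 rose and 6 fell under the clamp, and in control mice 2 rose and 8 fell, with median differences of 0.0057 and -0.10. Over all genes 3.76% rose and 3.8% fell in palm oil mice, and 4.66% rose and 4.09% fell in control mice. In the fit of the 11090 brighter genes alone, 1957 passed in palm oil and 2307 in control mice. Whether this list or those below held more calls than other genes of like brightness was not tested. Slc2a2, the GLUT2 transporter through which glucose passes the hepatocyte membrane, fell by 1.06 ± 0.19 in palm oil and by 1.15 ± 0.21 in control mice. Gpd1, which links glycerol to the pathway, fell by 1.18 ± 0.15 and 1.08 ± 0.17. Slc25a10, the mitochondrial dicarboxylate carrier, fell by 1.02 ± 0.15 and 1.09 ± 0.17, and Slc16a1, a lactate and pyruvate transporter, by 0.82 ± 0.13 and 0.49 ± 0.14. The genes that rose were Tat, tyrosine aminotransferase (0.83 ± 0.14 and 0.67 ± 0.16), and Ldha, a lactate dehydrogenase subunit (0.49 ± 0.11 and 0.59 ± 0.12), named because they made up that count. The probe set of Ldha had a mean of only 4.31 over all arrays, below that of Ppargc1a (4.65), the dimmest of the 8 members.

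Of 14 listed genes of glycolysis and its control, 12 were measured, and 2 rose and 1 fell in each gavage group. The medians were -5.6e-04 in palm oil and 0.10 in control mice. Pfkfb3 and Pfkfb2, bifunctional enzymes that set the level of fructose-2,6-bisphosphate and with it the balance between phosphofructokinase and Fbp1, rose by 1.85 ± 0.24 and 0.75 ± 0.14 in palm oil mice and by 1.84 ± 0.27 and 0.96 ± 0.16 in control mice. Pklr, the liver pyruvate kinase, fell by 0.92 ± 0.17 in palm oil and by 1.06 ± 0.19 in control mice.

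Downstream of the glucagon receptor, 29 of 32 listed genes of cyclic AMP and CREB signalling were measured, with medians of -0.07 in palm oil and 0.0026 in control mice. In palm oil mice 3 rose and 3 fell, and in control mice 3 rose and 4 fell. Adcy6, an adenylyl cyclase, fell by 0.62 ± 0.13 and 1.08 ± 0.14, and Creb3l3, a liver transcription factor of the CREB family, by 0.40 ± 0.08 and 0.58 ± 0.09. Pde4d, a cyclic AMP phosphodiesterase with a dim signal, fell by 0.35 ± 0.09 and 0.42 ± 0.11, and Adcy9 fell in control mice (-0.71 ± 0.15). Nr4a1, an orphan nuclear receptor that cyclic AMP induces, rose by 2.05 ± 0.28 in palm oil and 1.86 ± 0.31 in control mice. Crem, which encodes repressors and activators at CREB sites, rose by 0.68 ± 0.15 and 0.81 ± 0.17, and Crebbp, a CREB coactivator, by 0.25 ± 0.07 and 0.33 ± 0.08.

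Of 29 listed transcriptional regulators of gluconeogenic genes 28 were measured, with medians of 0.11 in palm oil and -0.06 in control mice. In palm oil mice 6 rose and 5 fell, and in control mice 8 rose and 6 fell. Cebpd, a C/EBP factor of the acute phase response, rose by 1.12 ± 0.12 and 1.09 ± 0.14. Stat3, a mediator of interleukin 6 that represses gluconeogenic genes in mouse liver, rose by 0.60 ± 0.11 and 0.82 ± 0.13, and Sirt1, a deacetylase that acts on Ppargc1a protein, by 0.81 ± 0.13 and 0.80 ± 0.14. Ppargc1b, the paralogue of Ppargc1a, fell by 0.77 ± 0.14 in palm oil and by 0.91 ± 0.16 in control mice. The marker means of neutrophils and Kupffer cells were higher in the same clamped groups, as given above, and their part in these differences was not tested. In palm oil against control mice, clamped or basal, and in the interaction, limma called 0 genes of any of the 4 lists.

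The calls in these lists depended in part on the arrays that stood apart, while every gene called over all arrays kept its sign in the 3 alternatives run, each of which also has fewer arrays. Without the basal mice from 44 upwards, the enzymes and carriers had 8 calls in palm oil and 6 in control mice, cyclic AMP and CREB signalling 6 and 6, the regulators 10 and 8, and the glycolytic list 3 and 2. Of the genes named in the list paragraphs, Tat, Ldha, Slc16a1, Pklr, Crem, Crebbp, Cry1 and Onecut1 then lost their call in control mice, and Crebbp in palm oil mice. Listed genes not named in those paragraphs lost theirs too, among them the regulators Hnf4a, Yy1 and Prkaa1 in control mice and Cebpa in palm oil mice. Without the acinar-rich arrays these lists had 7 and 5, 3 and 6, 7 and 10, and 4 and 3 calls. Of the genes named in the list paragraphs, Ldha, Crem, Creb3l3, Crebbp and Cry1 then lost their call in palm oil mice, and Ldha, Slc16a1, Pde4d, Crebbp and Cry1 in control mice. Others not named there did so too, among them Cebpb in both gavage groups. Without the basal mice under 44 the counts were 6 and 8, 5 and 9, 11 and 11, and 3 and 3. Of the genes named in the list paragraphs, Adcy6, Pde4d and Crebbp then lost their call in palm oil mice, and Cry1 in control mice. Slc2a2, Gpd1, Slc25a10, Pfkfb3, Pfkfb2, Nr4a1, Cebpd, Stat3, Sirt1 and Ppargc1b kept theirs in all 3 alternatives and both gavage groups. Over all genes the calls in palm oil and control mice numbered 1290 and 1026 without the basal mice from 44 upwards. They were 736 and 993 without the acinar-rich arrays, and 2180 and 2392 without the basal mice under 44.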

How the data were processed

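The deposited values are log2 expression values from RMA, for which the submitters' processing notes name Expression Console 1.3.0.187. This method corrects background, normalizes between arrays and summarises each probe set, and dim signals are compressed. The values of 41345 probe sets were used as deposited. A platform annotation gave 1 gene symbol to 23521 of them, several to 1814 and none to 16010. The probe set with the highest mean was kept for each of 22180 genes. Groups came from the sample titles. limma 3.58.1 (R 4.3.3, lmFit and eBayes) fitted 1 mean per group over 32 arrays with 28 residual degrees of freedom, and p-values were adjusted over all genes by the Benjamini-Hochberg method. Values after ± are standard errors unless SD is written. The number of arrays limits the precision. The fit was also run on simulated data in which all groups had the same spread. That run therefore does not bear on G6pc, whose spread differed between the states. Members, lists, motifs and alternatives were chosen with earlier results of these data known. The 8 members are described throughout. In each list, up to 3 called genes with the smallest p per clamp comparison are named, with exceptions stated or made for some counts of 5 or fewer. Alternatives covered probe set choice, filters, scaling, weights, the replicate number, the animal number and its split, acinar markers, thresholds, an exact rank sum test and omission of each array in turn. The animal number was centred within clamped and within basal mice, so that its term cannot adjust for the order between the states.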

Additional observations from a re-analysis of the deposited data

Results flagged for a closer look

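In 6 of 32 sets of a member's values in a group, the highest or lowest array lay apart from the others by Dixon's test, where chance gives about 1 in 20 sets. Slc37a4 was highest in palm oil clamped replicate 2 (7.93, next 7.39) and in control basal replicate 4 (7.80, next 7.33). Pcx was highest in control clamped replicate 6 (8.22, next 7.72) and in control basal replicate 5 (7.65, next 7.45). Pck1 was lowest in palm oil clamped replicate 4 (10.82, next 11.11), the array that also had the lowest G6pc of its group. Ppargc1a was lowest in palm oil basal replicate 7 (3.94, next 4.47). No array of G6pc, Fbp1, Gcgr or Crtc2 lay apart in this way.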

How the results depend on the processing

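The limits of these data are the spread of G6pc and Ppargc1a between clamped mice, the small shift of Gcgr, the basal mice numbered from 44 upwards, and the separate animal numbers of clamped and basal mice. Aside from leaving out single arrays, 655 alternative values kept direction and side of the threshold, 17 lost the call and 32 changed sign. Only the clamped against basal differences of G6pc and Gcgr were called over all arrays, and all 17 losses were theirs. The other differences had no call to lose, so that the 655 do not measure how stable the calls were. The 655 include values from alternatives that cannot change the difference. Members called in clamped against basal mice numbered 2 in both gavage groups. The count was 1 in both with 1 median for all arrays, with a term for the acinar markers and with a minimum of 1.3-fold, and 0 in both without arrays over 6 in acinar markers. It was 1 in palm oil mice without the 7 basal arrays numbered 44 or higher. Without the 9 basal arrays numbered under 44, an alternative chosen after seeing the data, it was 0 in palm oil and 1 in control mice. In control mice it was 1 with only the groups compared and 0 with the exact rank sum test. Leaving out single arrays gave 1 to 2 in both. The pairs of members correlated within groups numbered 4, and 2 with the animal split removed. The recounts of the pathway lists and the correlations without control clamped replicate 6 were also chosen after seeing the data.

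Genes called among all tested numbered 1678 in palm oil and 1940 in control mice. Without arrays over 6 in acinar markers they were 736 and 993, and in control mice 1026 without the basal arrays numbered 44 or higher and 1083 with the rank sum test. Between palm oil and control basal mice 0 genes were called, but 4 without the basal arrays numbered under 44 and 1 without arrays over 6 in acinar markers. The replicate numbers of the labels did not pair the mice: same-numbered arrays of 44 pairs correlated between -0.36 and 0.36, with a median of 0.021. With the replicate block the members called stayed at 2 and 2 (G6pc -1.81, adjusted p = 0.0248, and -2.44, adjusted p = 0.00645), and all genes called were 1629 and 1923.

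Small differences that never passed the test changed sign, and the cause was not tested. In palm oil clamped against basal mice, Pck1 was -0.016 with the animal split as a block, -0.038 without the basal mice from 44 upwards and -0.086 without acinar-rich arrays. There Fbp1 was 0.049 without the basal mice under 44 and Pcx -0.0022 without acinar-rich arrays. In control clamped against basal mice, Fbp1 was -0.10 with repeated quantile normalization, -0.037 with the animal split, -0.016 without the basal mice from 44 upwards and -0.0068 with the acinar term. There Slc37a4 was 0.014 with array weights and 0.026 with the animal split, and Pck1 was 0.043 without the basal mice under 44 and 0.0022 without acinar-rich arrays. In palm oil against control clamped mice, Fbp1 was 0.0016 with repeated quantile normalization, 0.010 with the replicate block and 0.0082 without acinar-rich arrays, and array weights gave -0.030 for Slc37a4 and -0.0033 for Ppargc1a. In palm oil against control basal mice, Pcx was 1.1e-04 with 1 median, 0.014 with array weights, 0.0094 with the animal number as a term, 0.017 without the basal mice from 44 upwards and 0.035 without acinar-rich arrays. Also there Gcgr was -0.048 without the basal mice from 44 upwards, Fbp1 -0.0018 without those under 44, and G6pc 0.097, Pck1 0.12 and Crtc2 0.0039 without acinar-rich arrays. The interaction of Gcgr was -0.0031 with array weights, and without acinar-rich arrays it was -0.17 for Gcgr, -0.088 for Pck1 and -0.041 for Crtc2.

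Leaving out single arrays turned the sign of 10 differences, none of which passed the test. In palm oil against control clamped mice, Slc37a4 ranged from -0.027 to 0.11, Pck1 from -0.017 to 0.081, Fbp1 from -0.033 to 0.0065, Ppargc1a from -0.042 to 0.40 and Crtc2 from -0.11 to 0.013. In control clamped against basal mice, Slc37a4 ranged from -0.11 to 0.033, Pck1 from -0.10 to 0.0034 and Ppargc1a from -0.43 to 0.011. Pcx ranged from -0.042 to 0.032 in palm oil against control basal mice, and the interaction of Gcgr from -0.028 to 0.085.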
